A study of Mus musculus with 6 samples.

Results

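A set of 10 nuclear genes, grouped under mitochondrial DNA maintenance and transcription, was followed in cardiomyocyte RNA after doxorubicin. The members, 10 of the 24972 gene rows deposited, were taken by name: Tfam, Polrmt, Tfb2m, Tfb1m, Tefm, Polg, Polg2, Ssbp1, Mgme1 and Endog. All 10 names were found and all 10 passed the filter used for testing, a mean of at least 10 normalized counts over the libraries. There were 6 libraries, 3 from mice given phosphate-buffered saline (vehicle) and 3 from mice given doxorubicin, an anthracycline that poisons topoisomerase II, at 25 mg per kg. Every mouse of both groups was of the MX1gfp strain, which carries a fluorescent reporter at the interferon-stimulated gene Mx1. Each received a single intraperitoneal injection of 100 microlitres, and hearts were taken 48 hours later. Ventricular cells were freed with collagenase and the myocytes left to settle by gravity, which enriches cardiomyocytes without sorting them. The labels give neither age nor sex. With 3 mice per group in the labels, each library is taken as 1 mouse. Values of a gene are listed below in the order of replicates 1 to 3.

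The mitochondrial genome is a small circle that encodes core subunits of the respiratory chain, and every protein that copies or transcribes it is imported from the cytosol. Transcription is carried out by the single-subunit polymerase Polrmt with Tfam, which bends the promoter and also packs the genome into nucleoids, and Tfb2m, which opens the promoter. Tefm keeps the polymerase elongating. Replication is carried out by Polg with its accessory subunit Polg2, the helicase Twnk and the single-strand binding protein Ssbp1, and Mgme1 trims the ends that are left. The heart depends heavily on this genome, and doxorubicin is known to reach mitochondria. RNA from the mitochondrial genome itself was not analysed here.

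The promoters of 4 members are shown because these genes share a sequence element, CCGGAAG. It holds GGAA, the core read by ETS factors such as Gabpa. On average Tefm, Tfam and Polrmt were lower after doxorubicin and Polg2 was higher, but no difference passed the test described below. Polg and Ssbp1, which hold the element too and were lower, are not printed. The part of the element in these differences was not tested. Each promoter shown is the 250 bases before the start site that RefSeq gives on GRCm38.p6, the assembly that mm10 denotes, on the minus strand. The table holds 1 start site per gene, and the spans of whole genes printed below, from RefSeq on the same assembly, reach 718 bases farther upstream in Tefm, 284 in Tfam, 23 in Polrmt and 0 in Polg2. The sequences run 5′ to 3′ with CCGGAAG or its reverse complement CTTCCGG in capitals. They lie at chr11:80142154-80142403 (Tefm), chr10:71238045-71238294 (Tfam), chr10:79746582-79746831 (Polrmt) and chr11:106779538-106779787 (Polg2).
Tefm: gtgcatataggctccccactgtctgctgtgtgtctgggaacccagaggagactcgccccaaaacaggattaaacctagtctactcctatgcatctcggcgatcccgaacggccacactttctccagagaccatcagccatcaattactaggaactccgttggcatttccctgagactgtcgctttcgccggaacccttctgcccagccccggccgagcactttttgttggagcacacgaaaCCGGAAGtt
Tfam: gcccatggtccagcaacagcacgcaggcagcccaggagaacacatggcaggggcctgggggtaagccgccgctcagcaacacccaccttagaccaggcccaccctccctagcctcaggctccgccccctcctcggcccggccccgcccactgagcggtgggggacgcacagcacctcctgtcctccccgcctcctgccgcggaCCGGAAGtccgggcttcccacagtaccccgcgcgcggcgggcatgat
Polrmt: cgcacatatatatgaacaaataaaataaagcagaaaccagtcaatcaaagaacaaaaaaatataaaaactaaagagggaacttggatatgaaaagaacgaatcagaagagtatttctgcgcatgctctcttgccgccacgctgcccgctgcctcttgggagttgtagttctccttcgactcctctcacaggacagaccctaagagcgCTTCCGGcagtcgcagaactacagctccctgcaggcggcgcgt
Polg2: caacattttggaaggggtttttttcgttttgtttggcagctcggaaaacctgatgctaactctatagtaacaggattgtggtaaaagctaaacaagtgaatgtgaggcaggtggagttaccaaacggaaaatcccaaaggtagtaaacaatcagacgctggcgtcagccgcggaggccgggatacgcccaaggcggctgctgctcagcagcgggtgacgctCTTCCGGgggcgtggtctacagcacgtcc

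RefSeq windows were found for all 10 members. Searched on both strands over 300 bases, from 250 before to 50 after the start site, 6 of the 10 (60%) held CCGGAAG: Tfam, Polg, Polg2, Polrmt, Ssbp1 and Tefm. Of 9805 tested genes with a window, 19.9% held it. In Tfam the match lay 47 to 41 bases before the start site, in Polrmt 43 to 37, in Polg2 29 to 23 and in Tefm 9 to 3. A second motif, GCGCANGCG, which resembles the site of the factor Nrf1, was found in 2 members, Polrmt and Tfb2m (20%), against 15.2% of those genes. Both motifs were chosen after the windows had been read, and a match is a description of letters only. Sites holding only GGAA were not counted. Polg2, higher on average after doxorubicin, and Tefm, the member with the largest difference downward, both hold CCGGAAG. Neither difference passed the test described below.

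Levels are the authors' normalized read counts. Judged by how the low values are spaced, about 7710000 to 11400000 reads stood behind the vehicle libraries and 3670000 to 6170000 behind the doxorubicin libraries, so depth and treatment cannot be told apart. Doxorubicin replicate 1 lay close to the vehicle libraries (Spearman correlations of 0.9773 to 0.9821 across genes) and replicates 2 and 3 lay farther off (0.8597 to 0.9144). Summed over 10 marker genes, cardiomyocyte transcripts reached 721674 to 868099 in the vehicle libraries and 641676, 218455 and 180772 in those of the doxorubicin group. The sum of 10 macrophage markers was 2583 to 2791 in the vehicle libraries and 4238 to 15615 after doxorubicin, that of 8 fibroblast markers 6817 to 8994 and 9366 to 24043, and that of 8 endothelial markers 15751 to 20743 and 25963 to 33866. Taken singly, 9 macrophage, 3 fibroblast and 5 endothelial markers were higher without overlap (19.2% of all genes tested). The fibroblast sum leaned on Dcn, at 2446 to 2905 with vehicle and 3113 to 18072 with doxorubicin. On average 7 fibroblast markers were higher and 1, Col3a1, was lower (log2 difference -0.42). The sum of 6 neutrophil markers was 10.5 to 21.7 and 55.0 to 563, and 7 lymphocyte markers summed to at most 66.1 in any library. Mural sums overlapped between groups. Erythroid and atrial sums overlapped as well but were highest in doxorubicin replicate 1, at 9027 against 249.8 to 2104 in the other libraries for erythroid markers and at 1426 against 368 to 692 for atrial markers; the erythroid marker Hbb-bs was listed at 0 in all 6 libraries. Fewer cardiomyocytes and less of a transcript per cardiomyocyte cannot be told apart in such RNA, and the part of these markers in the values below was not tested. Transcripts of Xist and of the Y chromosome divide the libraries across treatment, with vehicle replicate 3 and doxorubicin replicates 1 and 3 in the Xist class.

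The comparison asked whether the genes differed between doxorubicin and vehicle. On average 9 of the 10 were lower after doxorubicin and Polg2 was higher; with all libraries scaled to equal totals, which moved the median of all genes to 0.29, 8 were lower and Polg was also higher. A difference below 0 was found in 50.4% of all genes tested, and in 31.1% with equal totals. In 8 of the 10 the groups did not overlap, against 41.8% of all genes. These were 7 of the lower genes, Tfam, Polrmt, Tfb2m, Tfb1m, Tefm, Ssbp1 and Endog, against 22.6% of the 12477 genes, and Polg2 among higher genes, against 19.2%. With limma, which compared log2(value + 1) over all genes with Benjamini-Hochberg adjustment, 0 of the 10 passed an adjusted p of 0.05, as did 0 (0%) of all genes in either direction. At an unadjusted p under 0.05 there were 7 members, all lower, against 19.3% of all genes. The median log2 difference of the 10 was -0.54, against -0.0046 for all genes tested. When doxorubicin replicate 1 was left out, 7 members were lower at an adjusted p under 0.05 (all genes, 21.8%), namely Tfam, Polrmt, Tfb1m, Tefm, Ssbp1, Mgme1 and Endog, and 0 were higher (19.3%). With any other single library left out instead, 0 of the 10 passed. As replicate 1 lay nearest to vehicle, p values without it, here and below, were not taken as support for single genes.

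**Figure D1:**
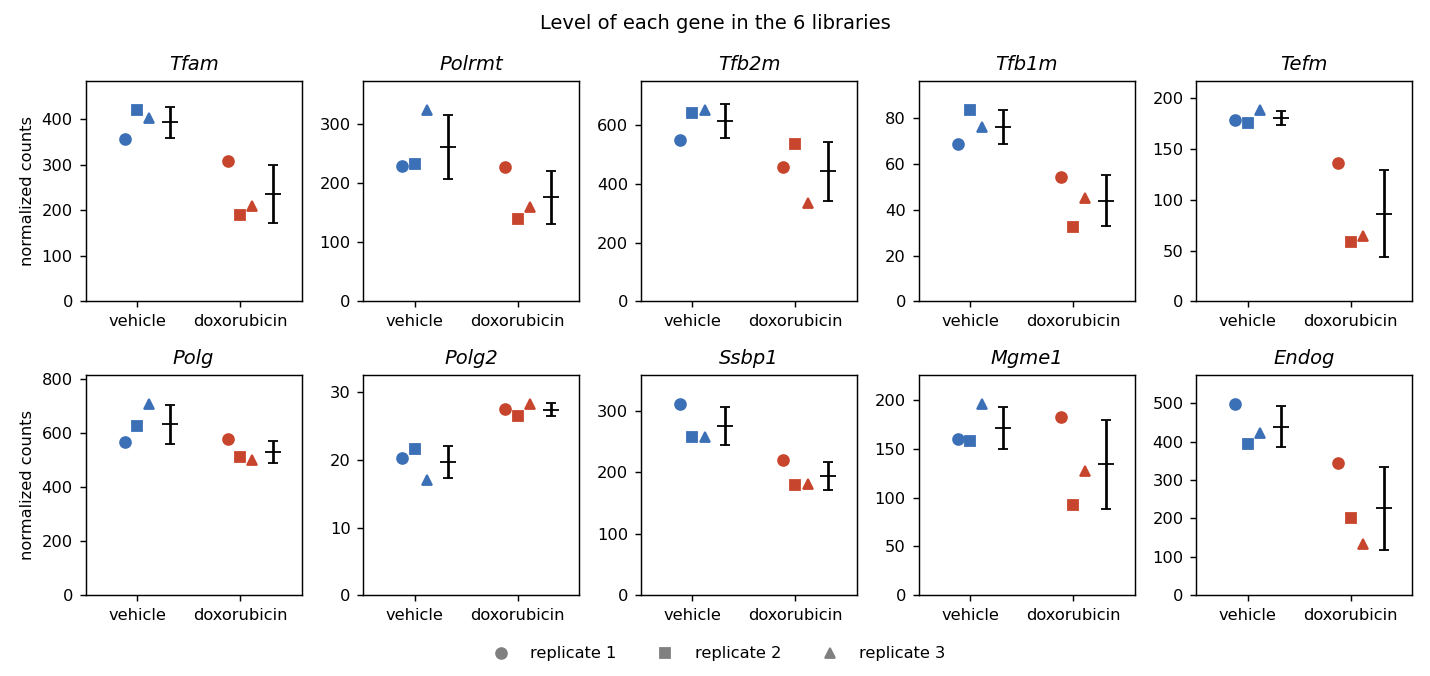
Normalized counts of the 10 genes in each library, 1 panel per gene, with vehicle in blue and doxorubicin in red, the replicate by marker shape, and the mean ± SD (n = 3) in black; the vertical axes start at 0 and differ between panels. Tefm and Endog show the deepest doxorubicin values, Polg2 alone lies above its vehicle values, and Polg and Mgme1 overlap between groups.

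Tefm, the elongation factor (chromosome 11, 80136674 to 80142871), had the largest difference. Vehicle libraries held 179, 175 and 189 normalized counts, and doxorubicin libraries 136, 58.8 and 64.2. The vehicle libraries were tightly grouped, and doxorubicin replicates 2 and 3 lay much farther below them than replicate 1 did. The means were 181 ± 6.97 and 86.3 ± 43.1 (SD, n = 3 in each group), so that the doxorubicin mean was 47.8% of the vehicle mean. The log2 difference was -1.16 (SE 0.31, limma adjusted p 0.0859), and without doxorubicin replicate 1 it was -1.54 (adjusted p 0.00044).

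Tfam (chromosome 10, 71225468 to 71238328), the packaging protein and transcription activator, stood at 356, 421 and 403 normalized counts with vehicle and at 308, 189 and 210 with doxorubicin. All 3 doxorubicin values lay below all vehicle values, with replicate 1 nearest to them. The means were 393 ± 33.6 and 236 ± 63.2 (SD, n = 3), a log2 difference of -0.77 (SE 0.20, limma adjusted p 0.0859), or -0.97 without replicate 1 (adjusted p 0.00192).

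The mitochondrial RNA polymerase Polrmt (chromosome 10, 79736125 to 79746604) read 228, 231 and 324 normalized counts with vehicle and 227, 140 and 160 with doxorubicin. Its groups were parted only narrowly, since doxorubicin replicate 1 lay just under the lowest vehicle library. The log2 difference was -0.58 (SE 0.23, limma adjusted p 0.120) and ranged from -0.78 to -0.42 as single libraries were left out. The ratio of Tfam to Polrmt normalized counts overlapped between the groups, lying between 1.25 and 1.82 in the vehicle libraries and between 1.31 and 1.36 in the doxorubicin libraries.

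Tfb2m and Tfb1m descend from the same family of RNA methyltransferases, but the first serves transcription and the second methylates the small ribosomal RNA of the mitochondrion. Tfb2m (chromosome 1, 179528052 to 179546305) stood at 549, 642 and 652 normalized counts with vehicle and at 457, 534 and 335 with doxorubicin. Here replicate 2 was the doxorubicin library nearest to the vehicle values. The log2 difference was -0.50 (SE 0.20, limma adjusted p 0.120), or -0.31 without doxorubicin replicate 3 (adjusted p 0.260). Tfb1m (chromosome 17, 3519250 to 3557796) stood at 68.6, 83.7 and 76.2 with vehicle against 54.4, 32.4 and 45.2 with doxorubicin. For this gene replicate 2 was the lowest library, and the log2 difference was -0.80 (SE 0.24, adjusted p 0.0859). The ratio of Tfb2m to Tfb1m was therefore 16.5 in doxorubicin replicate 2 and between 7.41 and 8.56 in the other 5 libraries, so that 1 library set the related genes apart. Only about 27 reads stood behind the Tfb1m value of that library, so its ratio is imprecise. The exact Poisson interval of that value (95%, counting error only) was 21.5 to 47.5 normalized counts.

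The replication genes Polg, Polg2, Ssbp1 and Mgme1 had log2 differences from -0.51 to 0.47. Polg (chromosome 7, 79446231 to 79467911), the catalytic subunit of the replicative DNA polymerase, stood at 566, 625 and 709 normalized counts with vehicle and at 577, 510 and 501 with doxorubicin. Its groups overlapped, through replicate 1, and the doxorubicin mean was 83.5% of the vehicle mean. The log2 difference was -0.26 (SE 0.15, limma adjusted p 0.244), and it was 0.046 when all libraries were scaled to the same total. As for the other members, a difference in Polg was not detected at the threshold with all 6 libraries.

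Polg2 (chromosome 11, 106768204 to 106779537), the accessory subunit that holds the polymerase on its template, stood at 20.3, 21.6 and 17.1 normalized counts with vehicle and at 27.5, 26.5 and 28.4 with doxorubicin. Its doxorubicin values lay close together, and all 3 were above every vehicle value. The log2 difference was 0.47 (SE 0.27, limma adjusted p 0.241), and 0.20 after quantile normalization. Only about 19 to 32 reads stood behind each of these values. Exact Poisson intervals (95%, counting error only) ran from 13.9 to 28.7 in vehicle replicate 1 and from 16.9 to 43.8 in doxorubicin replicate 3, so the intervals of these libraries overlapped and each value is imprecise. The ratio of Polg to Polg2 normalized counts, looked at after these values were seen, was 27.9, 28.9 and 41.5 in the vehicle libraries and 21.0, 19.2 and 17.7 after doxorubicin.

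Ssbp1 (chromosome 6, 40471414 to 40481823), which coats single-stranded mitochondrial DNA, stood at 312, 257 and 258 normalized counts with vehicle and at 220, 179 and 182 with doxorubicin. The groups did not overlap and doxorubicin replicates 2 and 3 were nearly equal. The log2 difference was -0.51 (SE 0.16, limma adjusted p 0.0863). Mgme1 (chromosome 2, 144270904 to 144281227), an exonuclease for single-stranded ends, stood at 160, 158 and 197 against 183, 92.5 and 127. Doxorubicin replicate 1 lay above 2 of the vehicle libraries, and the difference of -0.40 (SE 0.26, adjusted p 0.281) became -0.16 without doxorubicin replicate 2 and -0.65 without replicate 1 (adjusted p 0.0312).

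Endog (chromosome 2, 30171408 to 30174069) encodes a nuclease of the space between the mitochondrial membranes that is known for cutting DNA in dying cells. Vehicle libraries held 499, 395 and 423 normalized counts, and doxorubicin libraries 345, 202 and 133. Replicate 3 was the lowest library, at the widest distance from the vehicle mean of any single value in the set (-1.70 on the log2 scale). The means were 439 ± 54.0 and 227 ± 108 (SD, n = 3), a log2 difference of -1.05 (SE 0.32, limma adjusted p 0.0859), or -1.41 without replicate 1 (adjusted p 0.00162).

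**Figure D2:**
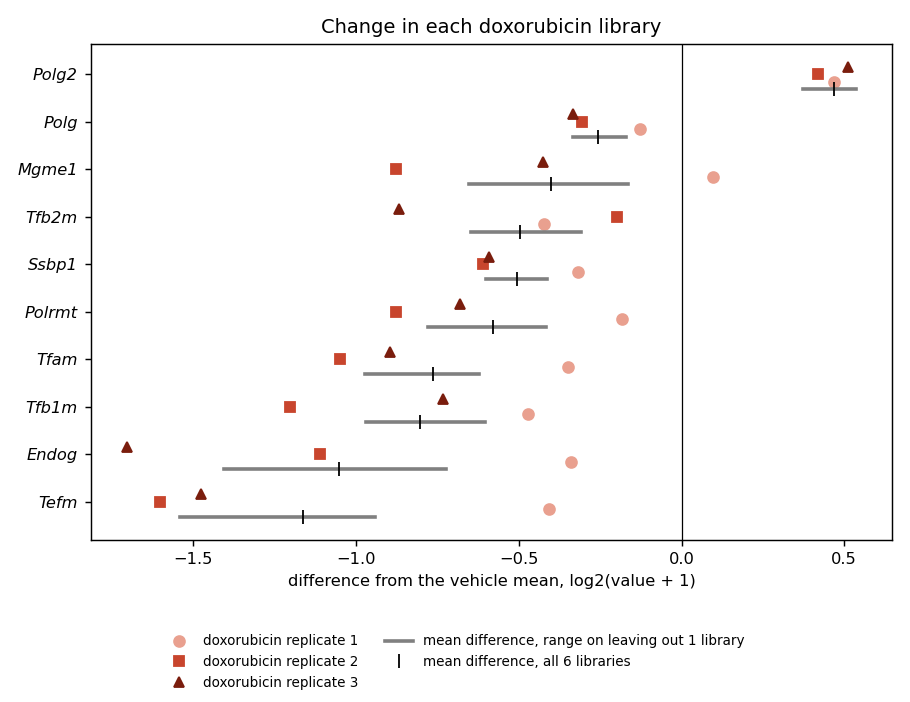
Difference of each doxorubicin library from the vehicle mean on the log2(value + 1) scale, 1 row per gene; black ticks give the mean difference over 6 libraries and grey bars its range when any 1 library is left out. Replicate 1 (pale circles) is the smallest shift in 8 of the 10 genes, Tfb2m and Polg2 being the exceptions, and no grey bar crosses 0.

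Across the set, doxorubicin replicate 1 lay nearest to the vehicle mean in 8 of the 10 genes, which also held for 65.8% of all genes tested. In 6 genes, Tfam, Polrmt, Ssbp1, Tfb1m, Endog and Tefm, replicate 1 lay below every vehicle library and above both other doxorubicin libraries (18% of all genes tested). The median differences of the set were -0.33, -0.88 and -0.71 in doxorubicin replicates 1 to 3, so the set was lowest in replicate 2. Respiratory chain subunits and cardiomyocyte markers were lowest in replicate 3, with medians of -0.44, -0.84 and -1.53 and of -0.43, -1.79 and -2.34.

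Levels can be set beside each other only per length, here per kb of the longest coding transcript that GENCODE M21 pairs with a curated RefSeq entry. In the vehicle libraries Endog was highest at 413 normalized counts per kb, followed by Tfb2m at 251, Tefm at 138 and Tfam at 94.4. Polg at 80.8, Polrmt at 69.5, Ssbp1 at 62.7, Mgme1 at 60.5 and Tfb1m at 54.3 followed, and neighbours from Tfam to Tfb1m in this order overlapped between libraries. Polg2 was lowest at 13.1. The places of Ssbp1 and Mgme1 depend on the transcript, since the shortest such transcript gives Ssbp1 259 and Mgme1 72.8. After doxorubicin the mean levels per kb were 213 for Endog, 180 for Tfb2m, 66.0 for Tefm and 56.6 for Tfam, while Polg stood at 67.5.

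Several members share sequence with a neighbour on the opposite strand, and the use of strand in counting is not given in the sources. In exons Polg overlaps Fanci by 921 bases, Polg2 overlaps Milr1 by 132, Tfb1m overlaps Tiam2 by 142 and Endog overlaps Spout1 by 379. Milr1, a receptor of immune cells, had 5.25 to 7.97 normalized counts in 5 libraries and 71.3 in doxorubicin replicate 3. Spout1 was 34.3 to 51.0 in the vehicle libraries and 54.8 to 67.6 after doxorubicin. Fanci stayed at 5.84 or below, and Tiam2 overlapped between groups. The part of these neighbours in the members' values was not tested.

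Other genes of the same machinery were read from lists. Of 11 replication partners, all tested, 6 were lower and 5 higher on average, with a median of -0.09, and 0 passed the threshold. With equal totals 4 were lower and 7 higher, with a median of 0.21. Values of the groups were fully apart in 2 of the lower genes (22.6% of all genes tested), Mpv17, an inner membrane protein needed to keep mitochondrial DNA, and Atad3a, and in all 5 of the higher ones (19.2%), Top1mt, Top3a, Primpol, Fen1 and Exog. Twnk, the replicative helicase, stood at 257, 266 and 291 normalized counts with vehicle and at 265, 137 and 127 with doxorubicin. Doxorubicin replicate 1 was level with the vehicle libraries, and the log2 difference was -0.70 (SE 0.28, limma adjusted p 0.120), or -1.03 without it (adjusted p 0.00149). Atad3a, a nucleoid-associated membrane protein, averaged 400.2 ± 19.2 and 239 ± 86.2 (SD, n = 3) (-0.80, adjusted p 0.0859, and 0.000957 without doxorubicin replicate 1). Top1mt, the mitochondrial topoisomerase, stood at 40.5, 27.7 and 36.5 with vehicle and at 53.8, 44.5 and 53.9 with doxorubicin (0.54, adjusted p 0.147). Fen1, a flap endonuclease, and Top3a, a topoisomerase, also serve nuclear DNA. The groups of Fen1 were parted only narrowly, at 32.9, 42.6 and 41.3 with vehicle and 45.9, 95.4 and 43.7 with doxorubicin. Primpol stood at 18.4 to 25.8 with vehicle and 27.7 to 41.8 with doxorubicin, and Exog at 17.6 to 25.2 and 28.0 to 37.0. These values are low, so counting error limits them as it does Polg2.

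Genes that supply nucleotides to mitochondrial DNA were also mixed. Of 12, 11 were tested, 8 lower and 3 higher, with a median of -0.44, and 0 passed (7 lower and 4 higher with equal totals). Tk2, the mitochondrial thymidine kinase, stood at 52.3, 68.9 and 76.3 normalized counts with vehicle and at 88.7, 124 and 114 with doxorubicin. All doxorubicin values were above all vehicle values, and the log2 difference was 0.72 (SE 0.22, limma adjusted p 0.0859, and 0.0149 without doxorubicin replicate 1). Suclg1, a subunit of succinyl-CoA ligase whose loss depletes mitochondrial DNA, averaged 2880 ± 182 and 1541 ± 564 (-0.96, adjusted p 0.0859, and 0.00131 without that library). Rrm2b, the ribonucleotide reductase subunit induced by p53, was 348 ± 42.2 and 356 ± 30.9 (0.04, adjusted p 0.881), a difference smaller than the spread between libraries.

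Of 8 genes for transcription termination and nucleoid turnover, 6 were tested and all 6 were lower (5 with equal totals), with a median of -0.56 and 0 past the threshold. Mterf2, of the termination factor family, stood at 245, 242 and 252 normalized counts with vehicle and at 176, 69.9 and 86.9 with doxorubicin, which is the order of libraries seen in Tefm. Its log2 difference was -1.26 (SE 0.32, limma adjusted p 0.0859), or -1.65 without doxorubicin replicate 1 (adjusted p 0.000379). Mterf3, which acts in mitochondrial ribosome assembly and transcription, differed by -0.32 (adjusted p 0.185), or by -0.43 without that library (adjusted p 0.0464). With equal totals the difference of Mterf3 was -0.017. Lonp1, the protease that degrades Tfam, averaged 1240 ± 124 and 837 ± 200.3 (-0.59, adjusted p 0.0989); it was -0.74 without doxorubicin replicate 1 (adjusted p 0.0155) and -0.39 without replicate 3.

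All 18 genes for processing and decay of mitochondrial RNA were tested and all 18 were lower (15 with equal totals), with a median of -0.69; all doxorubicin values were under all vehicle values in 13 (22.6% of all genes tested), and 0 passed the threshold. Lrpprc, which stabilises mitochondrial messenger RNA, stood at 1560, 1935 and 2285 normalized counts with vehicle and at 1520, 614 and 492 with doxorubicin. The range of the vehicle libraries nearly reached doxorubicin replicate 1, and the log2 difference was -1.30 (SE 0.40, limma adjusted p 0.0862), or -1.79 without replicate 1 (adjusted p 0.000556). Fastkd2, an RNA-binding protein of the mitochondrial granule, averaged 304 ± 14.2 and 167 ± 41.9 (-0.88, SE 0.20, adjusted p 0.0859, and 0.00161 without replicate 1).

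Among 7 upstream regulators, 5 were lower and 2 higher on average, with a median of -0.18 and 0 past the threshold (3 lower and 4 higher with equal totals, median 0.12). Esrra, a nuclear receptor that drives genes of energy metabolism, stood at 1510, 1464 and 1544 normalized counts with vehicle and at 1100, 691 and 551 with doxorubicin, with no overlap (-1.01, SE 0.25, limma adjusted p 0.0859, and 0.000742 without doxorubicin replicate 1). The coactivator gene Ppargc1a was 583, 668 and 928 against 637, 335 and 350, so that its groups overlapped (-0.76, adjusted p 0.111, and 0.00523 without doxorubicin replicate 1). Of the factors tied to the motifs searched above, Gabpa was 462, 521 and 595 against 482, 430 and 472, with overlap (-0.18, adjusted p 0.397); with equal totals its difference was 0.12, and without vehicle replicate 3 it was -0.09. Nrf1 was 113, 121 and 110 against 113, 169 and 160 (0.33, adjusted p 0.238, and 0.51 with an adjusted p of 0.0312 without doxorubicin replicate 1), and Gabpb1, the partner of Gabpa, was 102 ± 18.1 against 132 ± 6.13 (0.38, adjusted p 0.165).

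**Figure D3:**
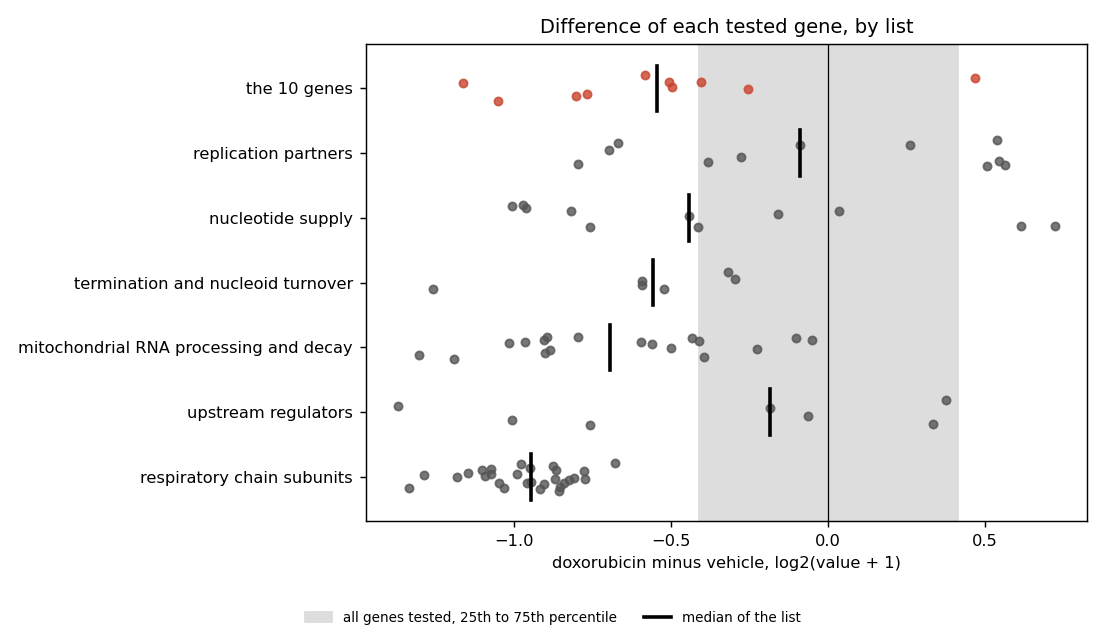
Log2 difference (doxorubicin minus vehicle, log2(value + 1)) of each tested gene by list, with the list median as a black bar; points are spread vertically for legibility and the grey band spans the 25th to 75th percentile of all genes tested. The 10 genes (red) have a median of -0.54, mitochondrial RNA processing -0.69 and respiratory chain subunits -0.95, while replication partners lie on both sides of 0.

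The 10 genes were also set beside respiratory chain subunits and mitochondrial ribosomal proteins. The 28 respiratory chain subunits listed were all lower, also with equal totals, with a median of -0.95 and groups that did not overlap in 28 (22.6% of all genes tested). After quantile normalization the subunits had a median of -0.57 and the 10 genes one of -0.54, so that the medians lay close to each other. The 78 rows named as mitochondrial ribosomal proteins were all lower as well (77 with equal totals), with a median of -0.79 and no overlap in 72. Each member was also expressed relative to the median of the respiratory chain subunits in the same library. On that scale Polg, Polg2 and Ssbp1 lay higher in all 3 doxorubicin libraries than in any vehicle library, against 68.2% of all genes tested; the other 7 overlapped, and 0 were lower throughout (0.369%). For Ssbp1 the relative values were 0.13, 0.23 and 0.93 with doxorubicin, against -0.057 to 0.053 with vehicle. Relative to the cardiomyocyte markers, Polg, Polg2 and Mgme1 lay higher throughout (76% of all genes tested), 0 lay lower throughout (0.0882%) and the other 7 overlapped. The difference between the set and these lists is described by medians and was not tested.

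**Figure D4:**
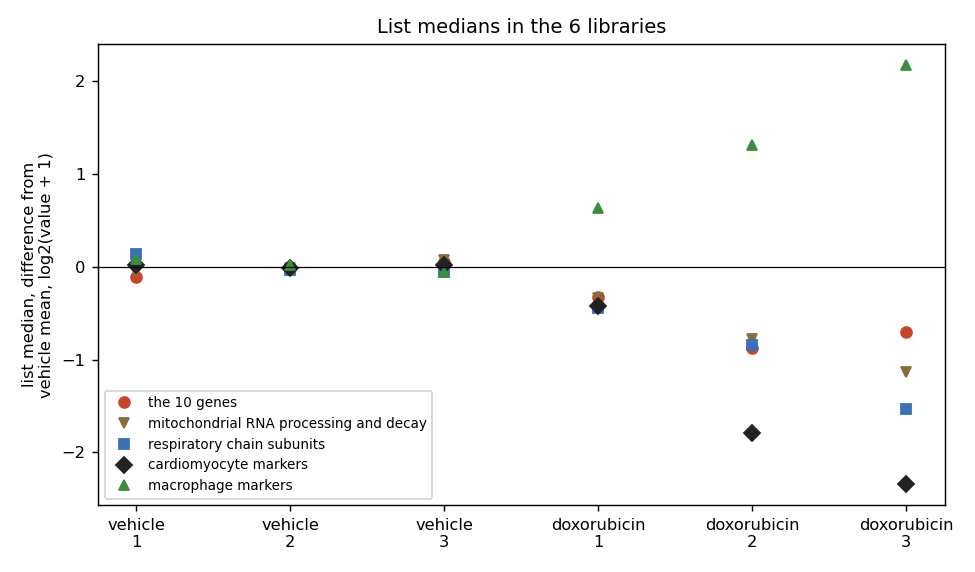
Median difference from the vehicle mean on the log2(value + 1) scale in each of the 6 libraries for the 10 genes, 3 lists of mitochondrial and cardiomyocyte genes, and macrophage markers. In doxorubicin replicate 3 the 10 genes stand at -0.71, respiratory chain subunits at -1.53, cardiomyocyte markers at -2.34 and macrophage markers at 2.17.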

How the data were processed

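RNA of 6 cardiomyocyte libraries was compared, 3 per group, with groups and replicate numbers taken from the sample titles. Per the labels, reads were aligned to mm10 with RefSeq genes by STAR in BaseSpace RNAseq Alignment 2.0.2, followed by RNA-seq Differential Expression 1.0.1. STAR 2.6.1a and Salmon are named per the submitters' processing notes. How reads were counted and normalized, and the use of strand, are not stated in these sources. The authors deposited a signal of normalized read counts, and library totals ran from 5410780 to 7500386. Low values lay within 0.1 of a whole multiple of the worth of 1 read in 80.1% to 92.5% of cases up to 8.5 reads, so count tests were not used and read numbers are approximate. The same-number libraries were not paired: the labels give no link, and their deviations from the group means correlated at -0.13, 0.03 and -0.09.

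All genes with a mean of at least 10 (12477) were tested as log2(value + 1) with limma 3.58.1 in R 4.3.3, with a trended prior variance, two-sided, with Benjamini-Hochberg adjustment and a threshold of 0.05. The procedure was also run on simulated data with the same spread in both groups. Spread differed between the groups here in genes such as Tefm, so that run does not bear on the calls. The pseudocount understates changes of low genes. An exact permutation test of 3 against 3 cannot go below 0.1 and was not used. Groups do not overlap where all 3 values of 1 group exceed all 3 of the other. Named genes were the 10 members, the tested gene with the smallest unadjusted p in each direction of each pathway list, and 8 fixed genes. Other gene names were chosen after their values were seen. The members and lists were chosen with earlier results of these data known. Prorp was matched under an older symbol. Figures were drawn with matplotlib 3.10.9.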

Additional observations from a re-analysis of the deposited data

How the results depend on the processing

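With all 6 libraries at equal weight, 0 genes passed the threshold under any pseudocount, filter, scaling, trend, class covariate or block tried. Library weights, estimated from these same values, were 0.28, 1.13 and 0.425 for doxorubicin replicates 1 to 3 and 1.47, 3.24 and 1.59 for vehicle replicates 1 to 3. The lowest weight fell on doxorubicin replicate 1, so p values of the weighted fit were not taken as support for single genes either. Of 12477 genes tested, the weighted fit called 1954 higher and 2318 lower. Among them were 6 of the 10 genes, all lower (Tfam, Polrmt, Ssbp1, Tfb1m, Endog and Tefm), with 1 pathway gene higher and 23 lower. Pathway genes are those of the lists from replication partners to upstream regulators, without respiratory chain subunits. In the order given above, these lists held 11, 11, 6, 18 and 7 tested genes. Over the fits that leave out 1 library, between 0 and 2409 genes were called higher and between 0 and 2718 lower, between 0 and 7 of the 10 genes lower, and between 0 and 3 pathway genes higher and 0 and 25 lower. The upper ends all came from leaving out doxorubicin replicate 1 (all genes, 19.3% higher and 21.8% lower), and leaving out doxorubicin replicate 2 called 1 gene lower. The median of the 10 genes ran from -0.72 to -0.50 over these fits. Equal totals, which moved the median of all genes to 0.29, gave -0.24 for the 10 genes, 0.046 for Polg, 0.21 for replication partners and 0.12 for upstream regulators and for Gabpa. Over the fits without 1 library the median of the replication partners ran from -0.17 (without doxorubicin replicate 1) to 0.088 (without doxorubicin replicate 3), with -0.25 after quantile normalization and -0.28 at a minimum mean of 50, and Rrm2b from -0.067 (without vehicle replicate 1) to 0.105 (without doxorubicin replicate 3), being -0.020 without doxorubicin replicate 2. The median of the upstream regulators ran from -0.27 (without vehicle replicate 1) to -0.091 (without vehicle replicate 3). With the replicate block, 0 genes were called (smallest adjusted p 0.115) and the median of the 10 genes was -0.54. Over all alternatives the limma adjusted p ran from 0.00044 to 0.256 for Tefm, from 0.00192 to 0.256 for Tfam, from 0.00162 to 0.256 for Endog, from 0.0113 to 0.256 for Tfb1m, from 0.0149 to 0.341 for Polrmt, from 0.0166 to 0.356 for Ssbp1 and from 0.0312 to 0.763 for Mgme1. For Tfb2m (0.0755 to 0.411), Polg (0.123 to 0.823) and Polg2 (0.106 to 0.614) the limma adjusted p never fell under 0.05. No other named gene changed direction. Depth limits Polg2 most, at 19 to 32 reads per library.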
